A study of Arabidopsis thaliana with 9 samples.

Results

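YAB3, YAB5, PHV, JAG and AN are 5 Arabidopsis thaliana genes that regulate the polarity and shape of leaves. They were taken as the probe sets annotated to 1 of these genes alone, which gave 5 of the 22746 probe sets tested, 1 for each gene, or 5 of the 13350 genes named there. Rosette leaves of Columbia plants had been profiled on Affymetrix ATH1 arrays in 3 groups of 3 arrays. The DVL4 line, which carries the DVL4 coding sequence in the dexamethasone-inducible GVG vector, was treated with 30 µM dexamethasone (dex; the labels write the unit as um), and these arrays are called DVL4 dex. A line with the same vector and no insert received the same dex treatment (empty vector dex), and the DVL4 line given a mock treatment was the third group (DVL4 mock). The plants of all groups had 6 expanded rosette leaves at treatment and grew at 22 °C under 16 h days, and harvest followed 10 h after treatment. Each array stands for 1 biological replicate, made of the largest leaf of each of 20 plants. All 3 groups carry the GVG vector, no mock-treated empty vector plants are among them, and empty vector dex therefore differs from DVL4 mock in both line and dex. How many independent transformed lines were used is not stated in the labels, and the harvested leaf was already expanded, so young primordia were not the tissue sampled. No probe set used here was named for DVL4, so its induction was not analysed here.

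Leaves are flat because the upper (adaxial) and lower (abaxial) sides of the primordium take different fates and the blade grows out where they meet. Class III homeodomain-leucine zipper factors such as PHV (PHAVOLUTA) promote adaxial fate and are restricted by the microRNAs miR165 and miR166. YABBY factors such as YAB3 and YAB5 are expressed on the abaxial side and promote blade growth. JAG (JAGGED), a zinc finger factor, promotes growth of lateral organs, and AN (ANGUSTIFOLIA), related to C-terminal binding proteins, is needed for normal leaf width. Overexpressed DEVIL (DVL) peptides alter leaf and fruit shape, and the study asked which transcripts respond to DVL4.

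In DVL4 dex leaves YAB3 was 1.47-fold lower and AN 1.35-fold higher than in DVL4 mock leaves. YAB3 was also lower in the dex-treated empty vector line than in mock, and neither YAB3 nor AN differed detectably between the DVL4 dex and empty vector dex leaves. The call of AN against mock was lost in 7 of 16 other settings. That of YAB3 against mock was lost in 2 of 16 for DVL4 dex and in 8 of 16 for empty vector dex. YAB5, PHV and JAG passed the test in none of the 3 comparisons. The values are intensities that the authors obtained with dChip, on a linear scale, and are given here per array. Tests were made with limma on log2 intensities, with Benjamini-Hochberg adjustment over all 22746 probe sets and a threshold of 0.05. A fold change is the ratio of the group means taken on the log2 scale. In bulk leaf tissue, fewer cells that express a gene and less of its RNA per cell cannot be told apart.

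**Figure D1:**
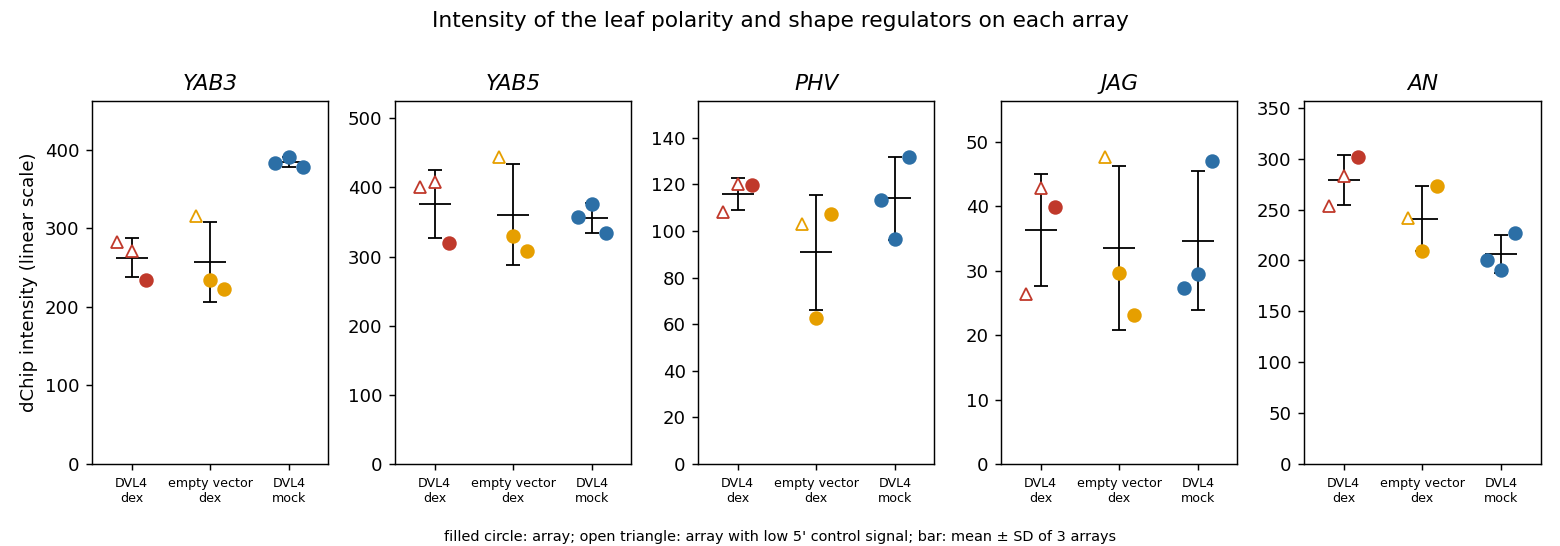
Intensity (dChip, linear scale, vertical axes from 0) of YAB3, YAB5, PHV, JAG and AN on each array, with DVL4 dex, empty vector dex and DVL4 mock from left to right in each panel. Points are arrays, open triangles are the 3 arrays with low 5' control signal, and bars are mean ± SD of 3 arrays; the YAB3 mock arrays (379 to 391) all lie above the other 6, and the AN mock arrays (191 to 227) all lie below the DVL4 dex arrays.

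Median intensities of the arrays ran from 75.4 to 84.1, and the number of arrays limits the precision. The arrays differed in the 5' signal of control transcripts, which depends on how far cDNA synthesis ran and, for plant transcripts, on RNA integrity. The 5' to 3' ratio of the dap control was under 0.5 on DVL4 dex replicates 1 and 2 and on empty vector dex replicate 1, which are called low-5' arrays below. The same ratio for the GAPDH control was 0.171 to 0.390 in DVL4 dex and 0.210 to 0.419 in empty vector dex, against 0.475 to 0.574 in DVL4 mock, so that the mock arrays stood apart from both dex groups. Markers could be read only where a probe set was named for them alone. The leaf markers RCA, PRK and LHCB4.1, genes of photosynthesis, were the 3 of 8 on their list with such a probe set. Their group means ran from 8083 for PRK in DVL4 dex to 10647 for LHCB4.1 in mock. CLV3, a stem cell marker, was the only 1 of 5 shoot apex markers with such a probe set. It averaged 4.40 in DVL4 dex, 7.17 in empty vector dex and 7.31 in DVL4 mock. These means lay near the floor of 4.92 to which lower values were raised. Of the 5 root markers, EXPA7, EXPA18 and PYK10 were measured at group means from 14.3 to 39.2, and EXPA7 alone passed, at 29.5 ± 6.89 in DVL4 dex against 14.3 ± 1.41 in mock (SD, n = 3 each; limma adjusted p = 0.0326). Markers of dividing cells were represented by the Aurora kinase genes AUR1 and AUR2 (2 of 5), which passed in none of the comparisons. None of the 5 flower markers had a probe set named for it alone, so they were not analysed here.

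YAB3 (AT4G00180) encodes a YABBY transcription factor that acts with FIL in abaxial fate and in blade outgrowth. Its intensity was 283, 271 and 235 on the DVL4 dex arrays, 316, 235 and 222 on the empty vector dex arrays, and 383, 391 and 379 on the DVL4 mock arrays. Every array of both dex groups lay below every mock array, while the dex groups overlapped each other. The mock arrays were also much closer together than the dex arrays, at 384 ± 6.54 in mock beside 263 ± 25.01 in DVL4 dex and 258 ± 50.9 in empty vector dex (mean ± SD, n = 3 each).

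Against mock, YAB3 fell by 0.55 on the log2 scale in DVL4 dex (SE 0.13, 95% interval -0.85 to -0.25, limma adjusted p = 0.0151), a 1.47-fold fall. Changes of at least this size occurred in 25.4% of all probe sets in this comparison, so the fall was not unusual for its size. Against mock, the empty vector line with dex had a fall in YAB3 of much the same size, -0.59 ± 0.13 (SE; limma adjusted p = 0.0315), equal to 1.51-fold, and 11.9% of probe sets moved as far there. Both comparisons use the same mock arrays. Between DVL4 dex and empty vector dex the change was 0.04 ± 0.13 (SE), and its 95% interval of 0.835-fold to 1.27-fold leaves room for modest differences either way (limma adjusted p = 0.896).

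The fall of YAB3 was at least as large without the low-5' arrays. With these 3 arrays left out, the change was -0.71 for the remaining DVL4 dex array against mock (limma adjusted p = 0.0228, the spread being taken from the other groups) and -0.75 for the remaining empty vector dex arrays against mock (limma adjusted p = 0.0221). With low 5' signal as a covariate the changes against mock were -0.79 for DVL4 dex and -0.71 for empty vector dex, and both passed. The part of the lower GAPDH 5' ratios of both dex groups in the differences of YAB3 and AN from mock was not tested. The call against mock in DVL4 dex was lost when DVL4 mock replicate 1 or 2 was left out (limma adjusted p = 0.05001 and 0.0551, with the change at -0.56 and -0.54). The call in empty vector dex was lost in 8 of 16 other settings, among them the omission of any 1 array of the comparison except empty vector dex replicate 1, with adjusted p from 0.00262 to 0.113 over all of them.

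YAB5 (AT2G26580), a second vegetative YABBY gene, had intensities of 401, 408 and 319 in DVL4 dex, 445, 330 and 307 in empty vector dex, and 357, 376 and 334 in DVL4 mock. The groups overlapped throughout, and the highest values, 401, 408 and 445, were those of the 3 low-5' arrays. Its change was 0.07 ± 0.15 for DVL4 dex against mock (SE; limma adjusted p = 0.777), with a 95% interval of 0.836-fold to 1.32-fold. It was 0.07 ± 0.15 for DVL4 dex against empty vector dex and 0.00 ± 0.15 for empty vector dex against mock. Without the low-5' arrays the changes against mock were -0.15 for DVL4 dex and -0.16 for empty vector dex, neither of which passed.

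The pair of YABBY genes moved together from array to array within each dex group, but stood in a different relation in mock leaves. The log2 intensity of YAB3 minus that of YAB5 was -0.51, -0.59 and -0.44 on the DVL4 dex arrays and -0.49, -0.49 and -0.47 on the empty vector dex arrays. On the DVL4 mock arrays it was 0.10, 0.06 and 0.18. Within each dex group the low-5' arrays were the highest for YAB3 and for YAB5. Their differences (-0.59 to -0.49) all lay below those of the other dex arrays (-0.49 to -0.44), by little at the nearest. The part of 5' signal in the difference between the 2 genes was not tested. The SD of the difference within groups was 0.06, beside 0.18 for YAB3 and 0.21 for YAB5 taken singly. It was the smallest of the 10 possible pairs of the 5 genes, where the next was 0.17 for PHV and AN. In DVL4 mock alone, without low-5' arrays, the SD of the difference was 0.06, beside 0.02 for YAB3 and 0.09 for YAB5. The narrower difference was thus a trait of the dex groups. Over all 9 arrays the Pearson correlation of the 2 genes was 0.36. These differences were formed after the values had been seen and have no test; they show unequal change of the pair and not that either gene stayed level.

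**Figure D2:**
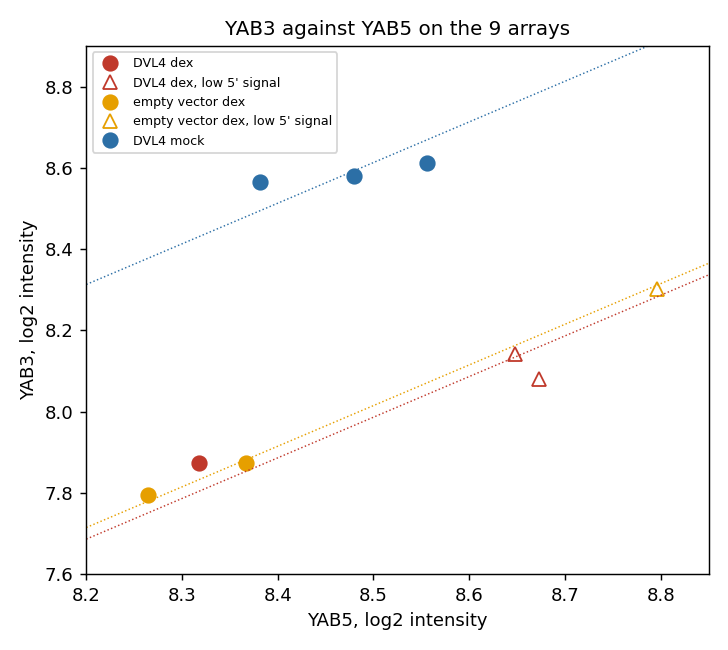
Log2 intensity of YAB3 (vertical axis) against that of YAB5 (horizontal axis) on the 9 arrays, with open triangles for low-5' arrays and dotted lines at each group's mean difference. The 6 dex arrays of both lines lie along lines at -0.51 and -0.48, and the 3 mock arrays around 0.11.

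PHV (AT1G30490), the adaxial homeodomain-leucine zipper gene, had intensities of 108, 120 and 120 in DVL4 dex, 103, 62.6 and 107 in empty vector dex, and 113, 96.6 and 132 in DVL4 mock. The DVL4 dex arrays lay within the range of mock and just above all 3 empty vector dex arrays, of which replicate 2 was far below the other arrays. Against mock the change in DVL4 dex was 0.03 ± 0.21 (SE; 95% interval 0.738-fold to 1.42-fold, limma adjusted p = 0.935). Against empty vector dex it was 0.39 ± 0.21 (limma adjusted p = 0.305), and without empty vector dex replicate 2 it was 0.14. For empty vector dex against mock the change was -0.36 ± 0.21 and -0.11 without that array, and neither passed.

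JAG (AT1G68480) varied most between replicates, with an SD within groups of 0.45 on the log2 scale. Its intensities were 26.4, 42.8 and 39.8 in DVL4 dex, 47.7, 29.7 and 23.2 in empty vector dex, and 27.4, 29.5 and 47.1 in DVL4 mock. All groups overlapped, and each held both a low and a high array. The SD was 24.0%, 37.9% and 31.2% of the mean in DVL4 dex, empty vector dex and DVL4 mock. The change in DVL4 dex was 0.08 ± 0.33 against mock and 0.15 ± 0.33 against empty vector dex (SE; limma adjusted p = 0.898 and 0.840). The 95% interval against mock ran from 0.634-fold to 1.76-fold, so these arrays leave room for a change of JAG in either direction.

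AN (AT1G01510) influences leaf width through the direction of cell expansion and the cortical microtubules. It had intensities of 253, 283 and 302 in DVL4 dex, 242, 209 and 273 in empty vector dex, and 201, 191 and 227 in DVL4 mock. Every DVL4 dex array exceeded every mock array, and the empty vector dex arrays overlapped with both. The group means were 279 ± 24.5 in DVL4 dex, 241 ± 31.9 in empty vector dex and 206 ± 18.9 in DVL4 mock (SD, n = 3 each).

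Against mock, AN rose by 0.44 ± 0.12 on the log2 scale in DVL4 dex (SE; 95% interval 1.12-fold to 1.64-fold, limma adjusted p = 0.0296), a 1.35-fold rise, and 35.5% of all probe sets moved at least as far. Against empty vector dex the change was 0.22 ± 0.12 (limma adjusted p = 0.338), and empty vector dex against mock gave 0.22 ± 0.12 (limma adjusted p = 0.354). The middle position of the empty vector line was thus not resolved from either neighbour. Over the 16 other settings the adjusted p against mock ran from 0.0141 to 0.161, although the change stayed between 0.36 and 0.55. The arrays whose omission ended the call were DVL4 dex replicates 2 and 3 and DVL4 mock replicates 1 and 2. Without the low-5' arrays the change was 0.55, from 1 DVL4 dex array, and did not pass (limma adjusted p = 0.161). Within the low-5' arrays AN was higher by 0.15 in DVL4 dex than in empty vector dex, and within the other arrays by 0.34, with 1 array on one side each time.

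**Figure D3:**
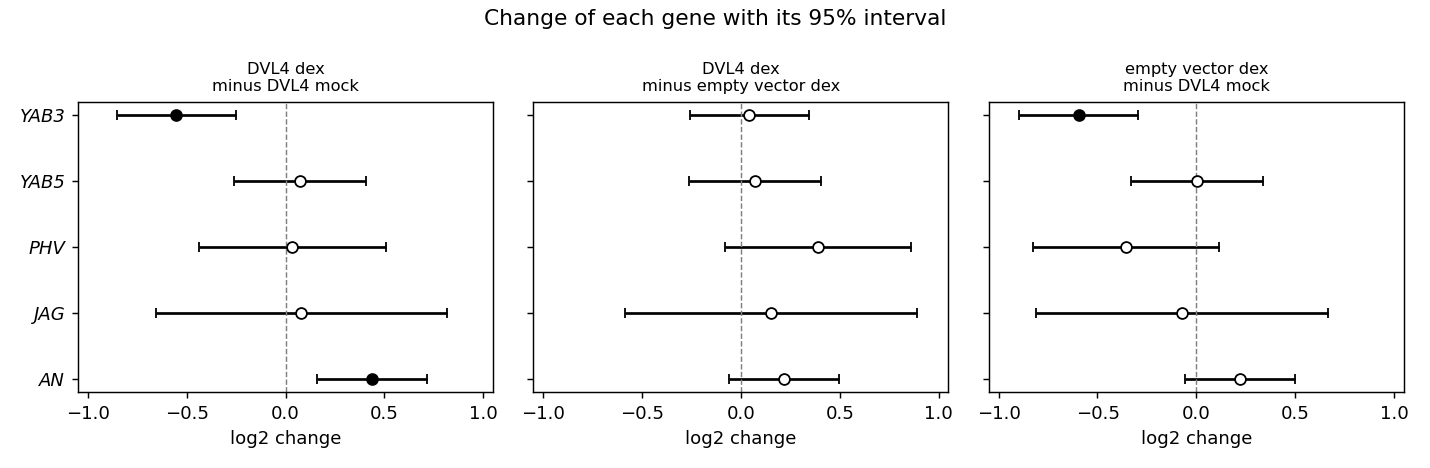
Log2 change (horizontal axes) of the 5 genes with 95% intervals from limma for DVL4 dex minus DVL4 mock, DVL4 dex minus empty vector dex and empty vector dex minus DVL4 mock. Filled points passed the threshold, which were YAB3 (-0.55) and AN (0.44) in the first panel and YAB3 (-0.59) in the third.

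The counts of called genes are read against the whole array, and with 5 genes they are too small to set these genes apart from it. Against mock, 2 of the 5 genes passed in DVL4 dex, 1 higher and 1 lower, where 23.7% of all probe sets passed, 12.8% higher and 10.9% lower. In DVL4 dex against empty vector dex limma called 0 of 5, also at an unadjusted p under 0.05, where 10.2% of all probe sets passed, 4.63% higher and 5.55% lower. In empty vector dex against mock 1 of 5 passed, and was lower, where 6.21% did on the array, 4.15% higher and 2.06% lower. Groups without overlap were found for 2, 1 and 1 of the 5 genes in these comparisons, against 43% (9779), 24.8% (5649) and 26.2% (5966) of the 22746 probe sets. The median change of the 5 genes was 0.07, 0.15 and -0.07, beside 0.01, 0.00 and 0.02 for all probe sets.

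**Figure D4:**
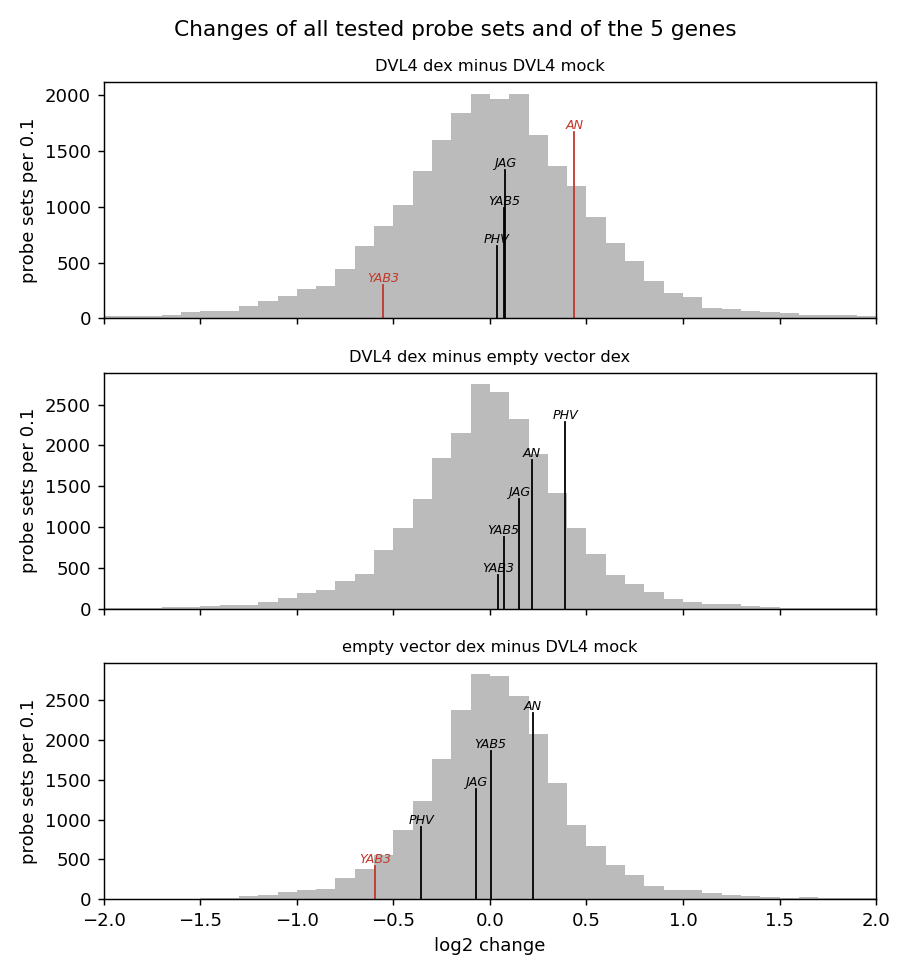
Number of probe sets per 0.1 of log2 change (vertical axes) over all 22746 tested, for the 3 comparisons, with lines at the changes of the 5 genes and line height without meaning; changes beyond the axis ends are not drawn. Red marks the genes that passed, and all 5 genes lie within the body of the distribution, with YAB3 at -0.55 and -0.59 nearest its edge.

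Of 68 further genes listed for leaf polarity, blade growth and leaf size, 5 had a probe set named for them alone. These were INO, AGO7, SEU, NUB and SPT, so the KANADI, ZPR, AS1-AS2, TCP and boundary lists and the other HD-ZIP III genes were not analysed here. Against mock, limma called 0 of these 5 in DVL4 dex (1 at an unadjusted p under 0.05), with a median change of -0.25. In DVL4 dex against empty vector dex 1 was lower and none higher, with a median of -0.06. In empty vector dex against mock limma again called 0 (1 at an unadjusted p under 0.05), with a median of 0.13. Over all probe sets 23.7%, 10.2% (5.55% lower) and 6.21% passed in these comparisons, and 43%, 24.8% and 26.2% had groups without overlap. With 5 genes the counts are too small to set the listed genes apart from the array.

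The 1 called gene was AGO7, which encodes an Argonaute protein of the pathway that forms trans-acting siRNAs against the abaxial factors ARF3 and ARF4. Its intensities were 24.3, 33.9 and 14.1 in DVL4 dex, 112, 57.9 and 88.5 in empty vector dex, and 42.6, 28.3 and 21.3 in DVL4 mock. The empty vector dex arrays lay above all 6 arrays of the DVL4 line. AGO7 was 3.67-fold lower in DVL4 dex than in empty vector dex (log2 change -1.88 ± 0.38 SE, limma adjusted p = 0.0144). It was higher in empty vector dex than in mock by 1.495 ± 0.38 without passing (limma adjusted p = 0.0504, and 0.0285 to 0.195 in other settings), and DVL4 dex against mock gave -0.38 ± 0.38. The call against empty vector dex was lost without DVL4 dex replicate 1 or empty vector dex replicate 3 (limma adjusted p = 0.0553 and 0.0522) and without the 3 low-5' arrays (0.130). The change itself was about as large or larger in these settings, at -1.93, -1.83 and -2.34, with fewer arrays fitted.

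NUB (NUBBIN), the closest relative of JAG and partly redundant with it, had intensities of 21.6, 21.8 and 24.0 in DVL4 dex, 20.1, 20.5 and 10.9 in empty vector dex, and 16.0, 13.6 and 13.9 in DVL4 mock. The DVL4 dex arrays were above all others, but the change of 0.64 ± 0.27 against mock did not pass (SE; limma adjusted p = 0.124), nor did that of 0.44 ± 0.27 against empty vector dex. It passed against mock when only the arrays compared were fitted, and with lower values raised to the 25th percentile, where the change was 0.16. That floor of 20.1 lay above all mock arrays and so removed their spread (SE 0.04), so no conclusion is drawn from this pass. SEU, a co-regulator that works with YABBY proteins, had log2 changes of 0.07, -0.06 and 0.13 in the 3 comparisons and did not pass. INO, an ovule YABBY gene, stood at 11.1 ± 3.70 in DVL4 dex, 12.3 ± 3.31 in empty vector dex and 13.0 ± 1.95 in mock. SPT, which restrains leaf size, stood at 22.3 ± 7.05, 20.7 ± 6.25 and 25.5 ± 2.24 in the same order, and neither gene passed.

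The array profiles most like those of the 5 genes were sought among the probe sets brighter than the median and named for 1 gene (6057, and 6058 for JAG), by Pearson correlation of log2 intensity over the 9 arrays. The correlations are descriptions, since all profiles share the same arrays, groups and 5' differences. For YAB3 they were AT2G40660 (r = 0.97), AT4G33660 (0.96) and AT4G17810 (0.95). All 3 had their highest mean in mock, such as AT4G17810 with 165 in DVL4 dex, 169 in empty vector dex and 248 in mock. For AN they were AT3G15980 and AT3G26370 (0.97 each) and AT4G39050 (0.96), each stepping down from DVL4 dex over empty vector dex to mock, such as AT3G26370 with 281, 227 and 179. For YAB5 they were AT1G53260, AT1G31000 and AT4G34220 (0.97, 0.96 and 0.95). For PHV they were BGLU40, AT1G13380 and CSLC04 (0.97, 0.94 and 0.93), and for JAG AT5G01300, AT3G44620 and AT3G57320 (0.90, 0.86 and 0.86). Among the 5 genes themselves the most opposed profiles were those of YAB3 and AN, with r = -0.68.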

How the data were processed

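Per the series text, the authors used dChip to obtain the deposited intensity of each of 22810 probe sets on every array, on a linear scale. The dChip version and settings are not given in the sources used. The values were used as deposited, without new normalization. Before log2 transformation, anything below 4.92, the 5th percentile over all arrays, was set to 4.92. Tests covered 22746 probe sets, after removal of 64 AFFX controls. Of these, 13513 are named for 1 symbol, 503 for several and 8730 are unnamed here, by GEO's platform annotation. Loci come from RefSeq (TAIR10.1), through gene identifiers.

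All 9 arrays entered a single fit in R 4.3.3 with limma 3.58.1 (lmFit, eBayes with trend=TRUE), with group as the only factor, 2-sided tests, and differences given as the first group named minus the second. For listed genes with more than 1 probe set the brightest stood for the gene. Errors on intensities are SD and on log2 changes SE. Groups and replicates came from the sample titles. The labels call the replicates biological. The replicate numbers were not used to pair samples in the main fit.

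The 5 genes, the lists and the tests were chosen with earlier results of these data known. The text names all 5 genes, every listed gene with a probe set named for it alone and the 3 closest profiles per gene. Alternatives tried were trend=FALSE, median centring, quantile normalization, no floor or a higher one (25th percentile, 20.1), removal of dim probe sets, fits restricted to the groups compared, a replicate block and omission of single arrays. Settings that treat the 3 arrays with a dap ratio under 0.5 separately, and all settings for the 5 other listed genes, were chosen after seeing the data. The fit was first tested on simulated data. Plots were drawn with matplotlib 3.10.9.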

Additional observations from a re-analysis of the deposited data

How the results depend on the processing

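YAB3 was lower and AN higher than in mock in DVL4 dex under every one of the 16 alternatives (-0.79 to -0.47 and 0.36 to 0.55), while the calls varied. Most of these settings could not turn the direction. The other floors, removal of dim probe sets, trend=FALSE, fits of only the groups compared and the replicate block left the changes at -0.55 and 0.44. Neither gene overlapped between DVL4 dex and mock, so leaving out arrays could not reverse it. Only quantile normalization, median centring and the low-5' covariate could have done so. Of the 5 genes, 2 passed against mock in the main setting, 1 with trend=FALSE, 1 with low 5' signal as a covariate, 1 without the 3 low-5' arrays and 0 to 2 with each array left out in turn. For DVL4 dex against empty vector dex the count was 0 under all 16. For empty vector dex against mock it was 1, falling to 0 with the floor at the 25th percentile, with trend=FALSE and with only the groups compared, and 0 to 1 with arrays left out. The cause of these losses was not tested. Fewer arrays were fitted in the settings that leave some out.

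Over all probe sets, 5401 were called in DVL4 dex against mock, 1360 without the low-5' arrays and 3477 to 5532 with each array left out, lowest without DVL4 dex replicate 1. In DVL4 dex against empty vector dex, 2317 were called, 1164 with only the groups compared, 4 without the low-5' arrays and 993 to 2259 with each array left out; it was 993 without DVL4 dex replicate 1 and 1323 without replicate 2. In empty vector dex against mock, 1412 were called, 813 with trend=FALSE, 892 with only the groups compared, 614 without the low-5' arrays and 480 to 2093 with each array left out; it was 615 without empty vector dex replicate 3, and 747, 580 and 480 without DVL4 mock replicates 1, 2 and 3. After median centring of the arrays, the calls of DVL4 dex against empty vector dex split into 1476 higher and 1080 lower, beside 1054 and 1263, and those of empty vector dex against mock into 904 and 714, beside 943 and 469.

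Changes that did not pass turned sign in some settings. In DVL4 dex against mock, quantile normalization gave -0.0065 for YAB5 and -0.0025 for SEU. The low-5' covariate gave -0.20 for YAB5, -0.052 for PHV and -0.13 for JAG, and without the low-5' arrays YAB5 was at -0.15 and SPT at 0.11. Leaving out arrays gave PHV -0.079 to 0.15, JAG -0.068 to 0.32, INO -0.46 to 0.035, SEU -0.023 to 0.14 and SPT -0.42 to 0.05. In DVL4 dex against empty vector dex, the covariate gave -0.076 for YAB3, -0.067 for YAB5 and 0.011 for SEU, and SEU was at 0.066 without the low-5' arrays. Leaving out arrays gave YAB3 -0.056 to 0.20, YAB5 -0.035 to 0.23, JAG -0.081 to 0.44, INO -0.40 to 0.14, SEU -0.16 to 0.041 and SPT -0.17 to 0.39. In empty vector dex against mock, YAB5 was at -0.059 with quantile normalization, -0.046 with median centring, -0.13 with the covariate and -0.16 without the low-5' arrays. Leaving out arrays gave YAB5 -0.16 to 0.11, JAG -0.36 to 0.17 and INO -0.28 to 0.12.

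With the replicate number as a block, 2, 0 and 1 of the 5 genes passed in the 3 comparisons, as without it, and 5116, 2057 and 1256 probe sets. Of the 5 genes and INO, AGO7, SEU, NUB and SPT, to which the replicate block was applied, it moved AGO7 alone across the threshold, in empty vector dex against mock (1.495, limma adjusted p = 0.0484). Deviations of same-numbered arrays from their group means correlated between -0.33 and 0.33. The lowest value set DVL4 dex replicate 2, a low-5' array, against empty vector dex replicate 2, which was not one. The highest set the low-5' arrays of replicate 1 in the same 2 groups against each other. These correlations thus cannot decide whether the numbers pair samples, and the main fit did not use them as pairs. Removal of dim probe sets left no value for JAG, AGO7, NUB, INO and SPT. JAG, AGO7, NUB, INO and SPT were thus dim, which also limits the call of AGO7. The intervals of the other 4 limit what could be seen.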

Other observations

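The log2 intensity of PHV minus that of AN averaged -1.27 ± 0.06 in DVL4 dex, -1.44 ± 0.26 in empty vector dex and -0.86 ± 0.11 in DVL4 mock (SD, n = 3 each). The highest dex array stood at -1.23 and the lowest mock array at -0.98, so all 6 dex arrays lay below the 3 mock arrays. YAB3 minus AN separated the groups in the same way, at -0.09 ± 0.26 in DVL4 dex and 0.09 ± 0.35 in empty vector dex, against 0.90 ± 0.15 in DVL4 mock. YAB3 alone already lay below mock on all 6 dex arrays, so this difference adds little to it. In YAB3 minus PHV and YAB3 minus JAG the mock arrays overlapped with dex arrays. YAB5 minus AN overlapped between the groups, with means of 0.42, 0.57 and 0.79 in the same order. These differences were formed after the values had been seen and were not tested.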
